A study of Homo sapiens with 4 samples.

Results

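The keratin-associated protein genes are the 94 protein-coding genes of the RefSeq table of GRCh38.p14 (hg38) whose symbol begins with KRTAP, out of 19974 protein-coding genes on chromosomes 1 to 22 and X. The rule uses the symbol and no measured value. Peaks were taken from chromatin immunoprecipitation and sequencing (ChIP-seq) with an HA-tag antibody in untreated cells of a subclone of MDA-MB-231, a human triple-negative breast cancer line, labelled as PD-L1 ChIP with a wild-type genotype. There were 2 ChIP samples, replicates 1 and 2, and 2 input samples of the same cells without antibody. The labels do not say how the HA tag was brought into the cells, and no mock precipitation was analysed here. Each ChIP replicate came as 1 list of broad peaks, with 166548 peaks in replicate 1 and 93591 in replicate 2 on the chromosomes compared. The authors' fold enrichment over the caller's background had a median of 3.14 in replicate 1 and 2.27 in replicate 2. Peak names of replicate 2 carry the word Merge, which the labels do not explain, so whether its list rests on that sample alone is unknown. The depth of the libraries is unknown, and no list of input peaks was analysed here, so no test between groups of samples was possible. Counts and densities below are descriptions, and their exact intervals cover counting error only. Genes of a cluster lie side by side and are not independent, so the intervals of gene shares are too narrow.

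Keratin-associated proteins form the matrix that surrounds the keratin filaments of the hair shaft and cross-link to them through disulfide bonds. Their genes are small, lie in clusters of near copies and are known to be switched on late, in the differentiating cortex and cuticle of the hair. They are grouped by composition into high-sulfur, ultra-high-sulfur and high-glycine-tyrosine families. A peak list gives no expression level, so whether any member was transcribed in these cells was not measured.

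The members lay on 3 chromosomes and fell into 5 clusters when genes 200 kb or less apart were joined. On chromosome 11, KRTAP5-1 to KRTAP5-6 (6 genes, chr11:1584342-1697755) lie near the end of the short arm, and KRTAP5-7 to KRTAP5-11 (5 genes, chr11:71527267-71582875) on the long arm. All 11 encode ultra-high-sulfur proteins. On chromosome 17, 34 genes run from KRTAP3-3 to KRTAP17-1 (chr17:40993430-41315710), among hair keratin genes. On chromosome 21, 33 genes run from KRTAP24-1 to KRTAP19-8 (chr21:30281309-31038476), among them the high-glycine-tyrosine families, and 16 genes of the KRTAP10 and KRTAP12 families (KRTAP10-1 to KRTAP10-12, chr21:44538981-44698044) lie inside TSPEAR. The widest gap between neighbouring members of a cluster was 156579 bp, and the closest clusters of 1 chromosome were 13500505 bp apart, so every gap was either below the 200 kb limit or far above it.

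The sequences on which peaks and promoters meet are shown first, because they place the peaks on the members' promoters. Of 94 members, 80 had an entry in the RefSeq promoter table (GRCh38.p14), and 5 of these had a peak over the 250 bases before their start. Each line gives those 250 bases 5′ to 3′ on the strand of the gene, and capitals mark bases under a peak. The peak belonged to replicate 2 for KRTAP10-6 and to replicate 1 for the other 4. Over all protein-coding genes, windows from 250 bases before to 50 after the start held a peak in 51.0% in replicate 1 and 13.3% in replicate 2.
KRTAP5-9, chr11:71548170-71548419, plus strand: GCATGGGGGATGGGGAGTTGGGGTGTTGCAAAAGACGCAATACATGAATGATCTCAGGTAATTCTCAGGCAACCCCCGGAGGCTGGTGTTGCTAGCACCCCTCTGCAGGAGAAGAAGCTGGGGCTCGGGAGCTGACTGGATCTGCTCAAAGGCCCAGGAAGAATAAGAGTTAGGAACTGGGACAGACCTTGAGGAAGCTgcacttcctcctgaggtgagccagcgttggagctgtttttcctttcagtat
KRTAP4-4, chr17:41160749-41160998, minus strand: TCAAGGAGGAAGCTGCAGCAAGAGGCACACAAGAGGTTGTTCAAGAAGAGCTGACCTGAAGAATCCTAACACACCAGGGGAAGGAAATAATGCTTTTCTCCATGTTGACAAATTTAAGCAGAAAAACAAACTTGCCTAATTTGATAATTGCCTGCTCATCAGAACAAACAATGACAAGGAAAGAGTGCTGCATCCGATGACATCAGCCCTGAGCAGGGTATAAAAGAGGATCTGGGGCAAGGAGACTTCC
KRTAP23-1, chr21:30348607-30348856, minus strand: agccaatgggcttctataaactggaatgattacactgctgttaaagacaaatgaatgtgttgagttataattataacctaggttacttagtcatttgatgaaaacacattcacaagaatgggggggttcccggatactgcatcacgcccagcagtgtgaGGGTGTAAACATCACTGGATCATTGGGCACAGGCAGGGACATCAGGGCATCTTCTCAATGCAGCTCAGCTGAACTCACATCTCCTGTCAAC
KRTAP10-9, chr21:44626843-44627092, plus strand: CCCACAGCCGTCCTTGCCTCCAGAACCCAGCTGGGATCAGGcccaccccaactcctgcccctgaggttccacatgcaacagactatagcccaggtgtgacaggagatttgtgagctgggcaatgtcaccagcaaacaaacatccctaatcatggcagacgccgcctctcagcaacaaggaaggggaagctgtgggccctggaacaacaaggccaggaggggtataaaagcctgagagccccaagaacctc
KRTAP10-6, chr21:44592506-44592755, minus strand: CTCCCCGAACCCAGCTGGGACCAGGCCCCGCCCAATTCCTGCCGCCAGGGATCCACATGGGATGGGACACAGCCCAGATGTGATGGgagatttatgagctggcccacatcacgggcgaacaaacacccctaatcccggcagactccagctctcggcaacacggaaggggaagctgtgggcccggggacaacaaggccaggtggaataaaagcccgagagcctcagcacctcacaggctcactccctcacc
The peak covered all 250 bases at KRTAP4-4, 199 at KRTAP5-9, 91 at KRTAP23-1, 86 at KRTAP10-6 and 41 at KRTAP10-9. At KRTAP23-1 it covered the bases next to the start, and at KRTAP5-9 it stopped 52 bases before the start. At KRTAP10-6 and KRTAP10-9 it reached only the far end of the stretch, 165 and 210 bases from the start.

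Few keratin-associated protein genes had a peak within the gene span plus 1 kb on each side. Replicate 1 had a peak at 6 of 94 members (6.38%, exact 95% interval 2.38% to 13.4%), against 79.2% of all protein-coding genes and 78.3% of those on chromosomes 11, 17 and 21. Replicate 2 had a peak at 5 members (5.32%, 1.75% to 12%), against 64.1% and 65.3%. Only KRTAP5-9 had a peak in both replicates (1.06%), against 61.2% of all protein-coding genes and 63.5% of those on the 3 chromosomes. KRTAP5-9 was also the only member whose window held a shared region, in which peaks of both replicates overlap, against 50.9% of all protein-coding genes and 57.1% on the 3 chromosomes. In all, 10 members had a peak in either replicate and 84 had none. Over all protein-coding genes, the share with a peak in either replicate is at least that of replicate 1, 79.2%. The genes of the flanks within 2 Mb of the clusters had shares near those of the genome: 268 of 340 in replicate 1 (78.8%) and 228 of 340 in replicate 2 (67.1%).

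KRTAP genes are short, which narrows the window in which a peak can be met. Their spans ran from 208 bp at KRTAP23-1 to 1643 bp at KRTAP10-4, with a median of 828.5 bp, against a median of 24170.5 bp over all protein-coding genes. Of the 1006 protein-coding genes no longer than the longest member, members included, 35.1% had a peak in replicate 1, 19.2% in replicate 2 and 15.2% in both, and 15.6% had a shared region. On chromosomes 11, 17 and 21 alone, 281 genes were as short, 94 of them members. Of the 281, 25.3%, 15.7% and 10.3% had a peak in replicate 1, in replicate 2 and in both. The members' shares of 6.38%, 5.32% and 1.06% were below each of these shares, which the members themselves lower.

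Shares were also set beside those of other families of tandem, hair and skin genes. Olfactory receptors, which also lie in tandem clusters and have a longer median span of 2937.5 bp, had a peak at 77 of 392 genes in replicate 1 (19.6%) and at 64 in replicate 2 (16.3%). Late cornified envelope genes, which encode barrier proteins of the epidermis, had 3 of 19 in replicate 1 and 4 of 19 in replicate 2. Small proline-rich genes, also of the epidermal barrier, had 1 of 11 in replicate 1 and 3 of 11 in replicate 2. The exact intervals of these last 2 lists overlapped those of the keratin-associated genes in both replicates, while those of the olfactory receptors lay above them. Genes of tandem clusters are not independent, so these intervals are too narrow to rank the families.

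Hair keratins, whose filaments the keratin-associated proteins bind, had a peak at 10 of 17 genes in replicate 1 (58.8%) and at 7 in replicate 2 (41.2%). On chromosome 12 that was 6 of 6 genes in replicate 1 and 4 of 6 in replicate 2, with KRT82 (highest fold enrichment 3.47 in replicate 1 and 2.24 in replicate 2) and KRT83 (3.40 and 2.19). On chromosome 17, beside the keratin-associated cluster, it was 4 of 11 and 3 of 11, with KRT35 (3.39 and 2.27). On chromosome 12, KRT81 lies inside the span of KRT86, so a peak at KRT81 counts for both genes. The other keratins had 26 of 38 in replicate 1 and 20 in replicate 2, led by KRT8 (4.22 and 2.57), a keratin of simple epithelia. The list of hair shaft and inner root sheath proteins also holds genes of the cornifying epidermis. That list had 7 of 10 and 5 of 10, with PADI3 (3.91 and 2.46), which turns arginine into citrulline, and TGM3 (4.08 and 2.25), a cross-linking transglutaminase. Regulators of hair follicle genes had 8 of 10 and 9 of 10, with CUX1 (4.14 and 3.04), GATA3 (4.03 and 2.54) and LEF1 (3.49 and 2.79). All protein-coding genes had shares of 79.2% in replicate 1 and 64.1% in replicate 2, inside the exact intervals of each of these lists. The genes given with folds ranked highest by fold among those of their list with peaks in both replicates. Genes of these lists differ in length from the members, with medians of 6316 bp for hair keratins and 31209.5 bp for the regulators.

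**Figure D1:**
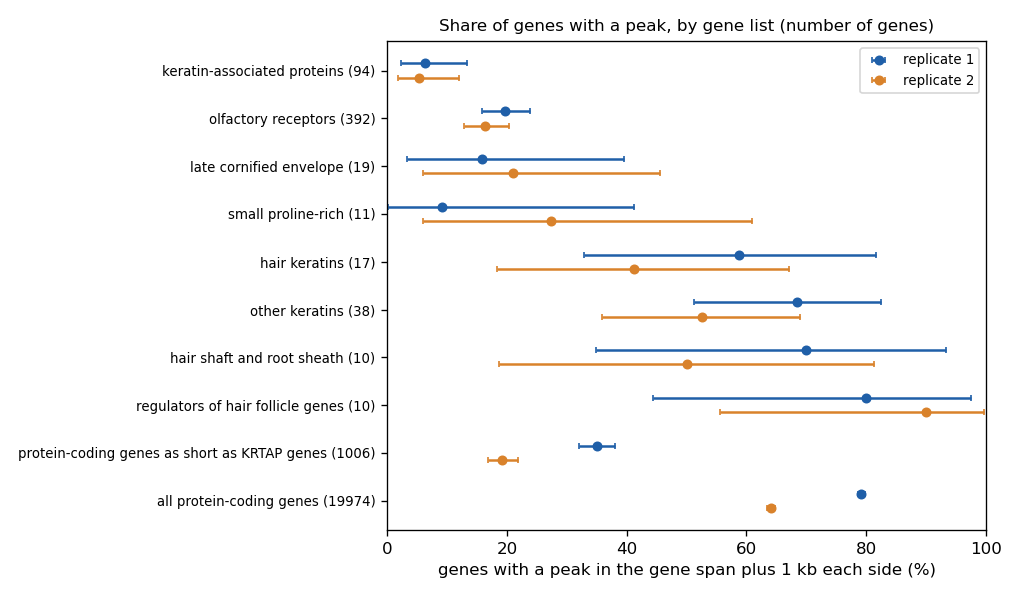
Percentage of genes with a peak in the gene span plus 1 kb on each side (horizontal axis) for keratin-associated protein genes, 7 other gene lists, short protein-coding genes and all protein-coding genes; points are replicate 1 (blue) and replicate 2 (orange), and bars are exact 95% binomial intervals. The keratin-associated genes stand at 6.38% and 5.32%, the lowest point of each colour, and all protein-coding genes at 79.2% and 64.1%.

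KRTAP5-9, an ultra-high-sulfur gene of the long-arm cluster on chromosome 11 (chr11:71548420-71549608), was the only member with peaks in both lists. In replicate 1 it had a peak 52 bp before the gene (chr11:71548040-71548368, fold 2.95, −log10 q 1.56) and a peak over its far end (chr11:71549226-71550244, fold 2.69, −log10 q 1.38). In replicate 2 it had a peak 353 bp before the gene (chr11:71547475-71548067, fold 2.1, −log10 q 1.68) and a peak over the far end (chr11:71549180-71550102, fold 2.19, −log10 q 1.71). The peaks at the far end shared 877 bp, and those before the gene shared 28 bp. Enrichment was weak for the lists: of the peaks of replicate 1, 8.87% had a lower −log10 q than the peak before the gene and 0.639% a lower one than that at the far end, and in replicate 2 the shares were 35.3% and 38.9%. The sequence printed above for KRTAP5-9 lay under the peak of replicate 1 and not under that of replicate 2.

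Its neighbours KRTAP5-10 (chr11:71565563-71566735) and KRTAP5-11 (chr11:71581855-71582875) had a peak in replicate 2 only. At KRTAP5-10 it lay within the gene (chr11:71566203-71566615, fold 2.71, −log10 q 1.67), and at KRTAP5-11 it overlapped the lower-coordinate end by 302 bp (chr11:71581662-71582156, fold 2.41, −log10 q 1.55). In replicate 1 the nearest peak was 1602 bp from KRTAP5-10 and 5586 bp from KRTAP5-11. KRTAP5-7, the first gene of this cluster, had its nearest peak at 6665 bp in replicate 1 and 13811 bp in replicate 2, and KRTAP5-8 at 2733 and 3271 bp. The remaining KRTAP5 genes, on the short arm, had none within 40 kb: the nearest were at 46078 bp in replicate 1 and 43304 bp in replicate 2, both from KRTAP5-6, and those of KRTAP5-1 at 63190 and 67451 bp.

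On chromosome 17, members with a peak were KRTAP4-4 and KRTAP4-3, both grouped as ultra-high-sulfur genes, in replicate 1 only. KRTAP4-4 (chr17:41159649-41160748) had a peak across its start (chr17:41160309-41161046, fold 2.92, −log10 q 1.56), and KRTAP4-3 (chr17:41167231-41168221) had a peak inside the gene (chr17:41167509-41167696, fold 2.80, −log10 q 1.43). In replicate 2 the nearest peak was 287199 bp from KRTAP4-4 and 279726 bp from KRTAP4-3. KRTAP3-3 and KRTAP17-1, at the ends of the cluster, had none within 100 kb in either replicate, with distances of 166145 and 220684 bp for KRTAP3-3 and of 118402 and 132237 bp for KRTAP17-1. All 8 KRTAP9 genes, and all members of the KRTAP1, KRTAP2 and KRTAP3 families, had no peak in their windows.

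On chromosome 21, the larger cluster had peaks at KRTAP23-1 and KRTAP11-1, here grouped as high-sulfur genes, again in replicate 1 only. The peak at KRTAP23-1 (chr21:30348399-30348606) lay across its start (chr21:30348522-30348697, fold 3.15, −log10 q 1.74). That at KRTAP11-1 (chr21:30880644-30881580) lay 316 bp before the gene (chr21:30881896-30882114, fold 3.02, −log10 q 1.63). In replicate 2 their nearest peaks were at 161372 and 108449 bp. KRTAP24-1, the first gene of the cluster, was 65318 bp from a peak in replicate 1 and 94282 bp in replicate 2, and KRTAP19-8, the last, 17136 and 47359 bp.

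In the KRTAP10 and KRTAP12 cluster, 3 members had a peak, and no member had one in both replicates. KRTAP10-9 (chr21:44627093-44628378) had a peak 210 bp before its start in replicate 1 (chr21:44626294-44626883), with a fold of 3.58 and a −log10 q of 2.27. Of the peaks of replicate 1, 81.1% had a lower −log10 q, and this was the highest value at any of the 94 members. KRTAP10-3 (chr21:44557790-44558795) had a peak over its far end in replicate 2 (chr21:44557062-44557958, fold 2.46, −log10 q 1.74), and KRTAP10-6 (chr21:44591268-44592505) had 1 before its start (chr21:44592670-44593062, fold 2.41, −log10 q 1.63). The 4 KRTAP12 genes had none. All 16 genes lie within the span of TSPEAR (chr21:44497893-44711572), a gene linked to hearing and to ectodermal dysplasia, which held 5 peaks in replicate 1 and 9 in replicate 2; peaks at these members and peaks of TSPEAR cannot be told apart.

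By protein family, no high-glycine-tyrosine gene (0 of 22) had a peak in either replicate. Of ultra-high-sulfur genes, 3 of 32 had a peak in replicate 1 and 3 in replicate 2, and of high-sulfur genes 3 of 39 and 2 of 39. All protein-coding genes had 79.2% and 64.1%, and those no longer than the longest member 35.1% and 19.2%. The high-glycine-tyrosine genes are short even for members, with spans from 224 bp at KRTAP20-4 to 721 bp at KRTAP7-1 against the members' median of 828.5 bp. All 22 lie in the larger chromosome 21 cluster, so family, length and position cannot be told apart. KRTAP29-1 was not assigned to a family.

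The 1 kb limit divided close cases. KRTAP10-2 was just outside it in replicate 1, with a peak at 1070 bp, followed by KRTAP5-10 at 1602 bp and KRTAP4-2 at 1783 bp. In replicate 2 the closest were KRTAP10-12 at 1883 bp, KRTAP12-4 at 2551 bp and KRTAP10-8 at 2963 bp. Inside the limit, the gene farthest from its nearest peak was KRTAP11-1 in replicate 1, at 316 bp, and KRTAP10-6 in replicate 2, at 165 bp. A further peak of replicate 2 lay 353 bp from KRTAP5-9.

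Most members lay far from any peak. From the gene span to the nearest peak, members had a median of 64254 bp in replicate 1, against 0 bp for all protein-coding genes and 8225 bp for the short ones. In replicate 2 their median was 217394 bp, against 0 bp and 16206.5 bp. More than 50 kb separated 58.5% of members from a peak in replicate 1 and 75.5% in replicate 2, against 10.7% and 13.5% of all protein-coding genes. The same shares were 34.2% and 43.1% for short genes on chromosomes 11, 17 and 21, members included, and 32.1% and 36.0% for olfactory receptors. Of the 96 such short genes in replicate 1, 55 were members, and of the 121 in replicate 2, 71 were members. The clusters differed widely among themselves. Medians were 2733 and 0 bp for KRTAP5-7 to KRTAP5-11, and 11426.5 and 4907.5 bp for KRTAP10-1 to KRTAP10-12, in replicates 1 and 2. They were 81219 and 85480 bp for KRTAP5-1 to KRTAP5-6, 74846 and 262087 bp for the chromosome 17 cluster, and 134637 and 271252 bp for the larger chromosome 21 cluster. The member farthest from a peak in replicate 2 was KRTAP22-2 at 399632 bp, and in replicate 1 KRTAP20-1 at 265197 bp, both high-glycine-tyrosine genes.

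**Figure D2:**
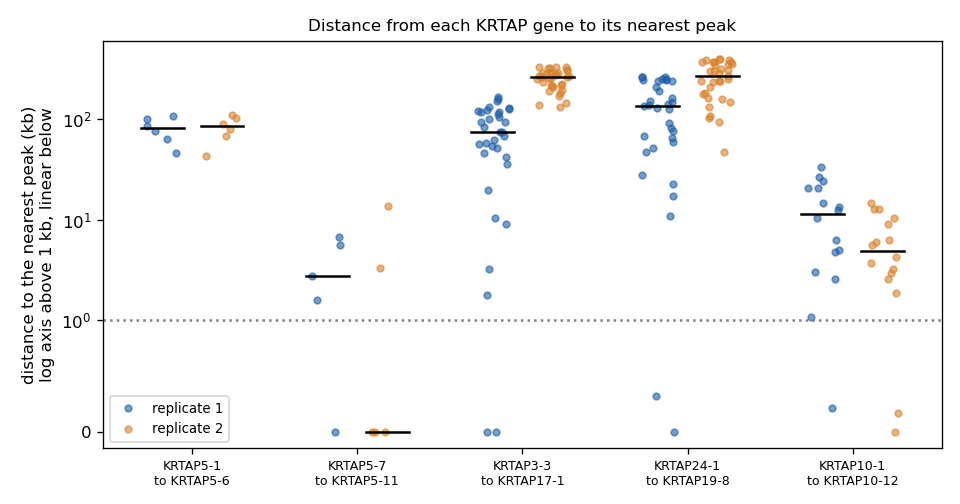
Distance from each of the 94 genes to its nearest peak (vertical axis in kb, logarithmic above 1 kb and linear below) by cluster; points are genes in replicate 1 (blue) and replicate 2 (orange), black lines are medians and the dotted line marks 1 kb. Points of KRTAP5-7 to KRTAP5-11 and of KRTAP10-1 to KRTAP10-12 lie below 40 kb, and those of the other 3 clusters mostly above it.

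Over all 5 clusters, which together spanned 1.41 Mb, there were 16 peaks in replicate 1 and 14 in replicate 2. That was 11.4 peaks per Mb inside the clusters against 116 in the flanks in replicate 1, a ratio of 0.0982. In replicate 2 it was 9.95 peaks per Mb inside against 64.8 in the flanks, a ratio of 0.153. The mean ratio was 0.126 ± 0.039 (SD, n = 2). The clusters made up 6.71% of the length of clusters and flanks and held 0.701% of their peaks in replicate 1 (exact 95% interval 0.401% to 1.14%) and 1.09% in replicate 2 (0.597% to 1.82%). Peaks of a broad list lie together and are not independent, so these intervals are too narrow. Peaks covered 0.58% of cluster bases against 13.8% of flank bases in replicate 1, and 0.639% against 5.25% in replicate 2. Flanks reached 2 Mb on each side, except 1.58 Mb on the lower side of KRTAP5-1 to KRTAP5-6, where the chromosome begins.

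The density inside was not uniform over the clusters. KRTAP5-1 to KRTAP5-6 held no peak in either replicate, which allows up to 26.5 peaks per Mb, against 127 in the flanks of replicate 1 and 54.4 in those of replicate 2. The chromosome 17 cluster held 4 peaks in replicate 1 (12.4 per Mb against 150 in the flanks, ratio 0.0825) and none in replicate 2, which allows up to 9.31 per Mb, against 81.5. The larger chromosome 21 cluster held 3 peaks in replicate 1 (3.96 per Mb against 21.2, ratio 0.186) and 1 in replicate 2 (1.32 against 21.2, ratio 0.0622). Its own flanks were poor in peaks, with 10.5 and 9.5 per Mb on the lower side in replicates 1 and 2.

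The remaining clusters stood nearer to their flanks in replicate 2. In replicate 1 that held for KRTAP5-7 to KRTAP5-11, while KRTAP10-1 to KRTAP10-12 was close to the larger chromosome 21 cluster (ratios 0.193 and 0.186). KRTAP10-1 to KRTAP10-12 held 3 peaks in replicate 1 (18.9 per Mb against 97.8, ratio 0.193) and 7 in replicate 2 (44.0 against 57.2, ratio 0.769). Its share of the peaks in replicate 1, 0.761%, had an exact interval of 0.157% to 2.21%, below its share of the length of cluster and flanks, 3.82%. In replicate 2 its share of the peaks, 2.97%, had an exact interval of 1.2% to 6.02%, which includes its share of the length. KRTAP5-7 to KRTAP5-11 held 6 peaks in each replicate, or 108 per Mb, against 184 in the flanks in replicate 1 (ratio 0.586) and 109 in replicate 2 (ratio 0.992). Its share of the peaks was 0.809% (0.297% to 1.75%) in replicate 1 and 1.36% (0.501% to 2.94%) in replicate 2, and its share of the length was 1.37%, inside both intervals. By number of peaks, no lower density was thus detectable there. Covered bases were 6.74% inside against 26.2% in the flanks in replicate 1 (ratio 0.257), and 7.34% against 9.49% in replicate 2 (ratio 0.774).

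**Figure D3:**
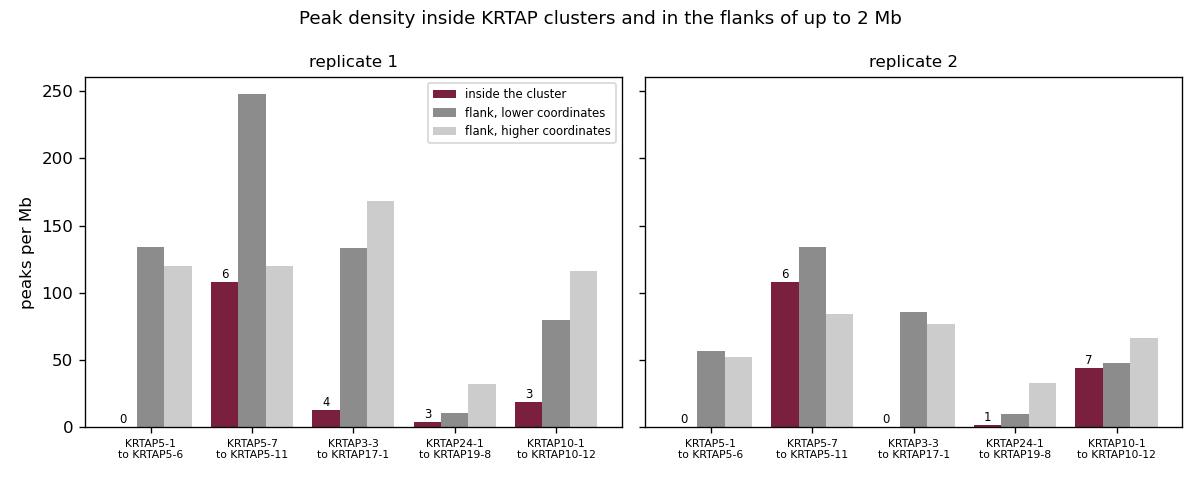
Peaks per Mb (vertical axis) inside each of the 5 clusters (dark bars, with the number of peaks above them) and in the flanks of up to 2 Mb on the side of lower and of higher coordinates (grey bars), for replicate 1 (left) and replicate 2 (right). In replicate 1 every dark bar is below both of its flanks, while in replicate 2 KRTAP5-7 to KRTAP5-11, at 108 peaks per Mb, stands between its flanks of 134 and 84.0.

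Several clusters lay inside long stretches with no peak. For each cluster the longest gap touching it was picked, so its rank among all gaps of the chromosome is no measure of rarity. Stretches of equal length are compared further below. On chromosome 17, replicate 2 had no peak over 675 kb (chr17:40772747-41447946), which wholly contained all 34 members and 14 keratin genes, among them KRT10 of the epidermis, KRT20 of the gut and the hair keratins KRT31, KRT33A, KRT33B, KRT34 and KRT37 to KRT40. Only 3 of 4822 gaps between peaks on that chromosome were longer. The longest gap of replicate 1 there was 378 kb (chr17:40782505-41160308) and held 19 members and 7 keratin genes, with 7 of 8863 gaps longer. The hair keratins nearest to the cluster, KRT40 at 6295 bp and KRT33A at 30382 bp, had no peak in either replicate.

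On chromosome 21, replicate 2 had no peak over 803 kb (chr21:30187028-30990028), with 32 of the 33 members and CLDN8, a tight junction gene, inside. In replicate 1 the longest gap was 533 kb (chr21:30348698-30881895), with 27 members, between the peaks at KRTAP23-1 and KRTAP11-1. Longer gaps on that chromosome numbered 4 of 754 in replicate 2 and 11 of 946 in replicate 1. TIAM1, which encodes an exchange factor of the GTPase Rac and begins 79942 bp beyond the cluster, had 24 peaks in replicate 1 and 25 in replicate 2.

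On the short arm of chromosome 11 the gaps of the replicates nearly coincided, with 223 kb in replicate 1 (chr11:1521153-1743832) and 224 kb in replicate 2 (chr11:1516892-1741058). Each held the 6 members and DUSP8, a phosphatase gene. Longer gaps on that chromosome numbered 59 of 10951 in replicate 1 and 73 of 5932 in replicate 2. Of 34 bins of 100 kb outside the cluster and within 2 Mb of its centre, 9 had no peak in either replicate. On the long arm, a gap of 342 kb in replicate 1 (chr11:71576270-71918621) and of 336 kb in replicate 2 (chr11:71582157-71918087) began near the end of the cluster and held the defensin genes DEFB108B and DEFB131B. KRTAP5-11 was within it in replicate 1. Longer gaps numbered 21 of 10951 in replicate 1 and 34 of 5932 in replicate 2. On the other side, NADSYN1 and DHCR7, genes of NAD and cholesterol synthesis, had 13 and 7 peaks in replicate 1 and 3 and 5 in replicate 2. This cluster thus stood at the border of a stretch rich in peaks, with 248 and 134 peaks per Mb on the lower side.

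**Figure D4:**
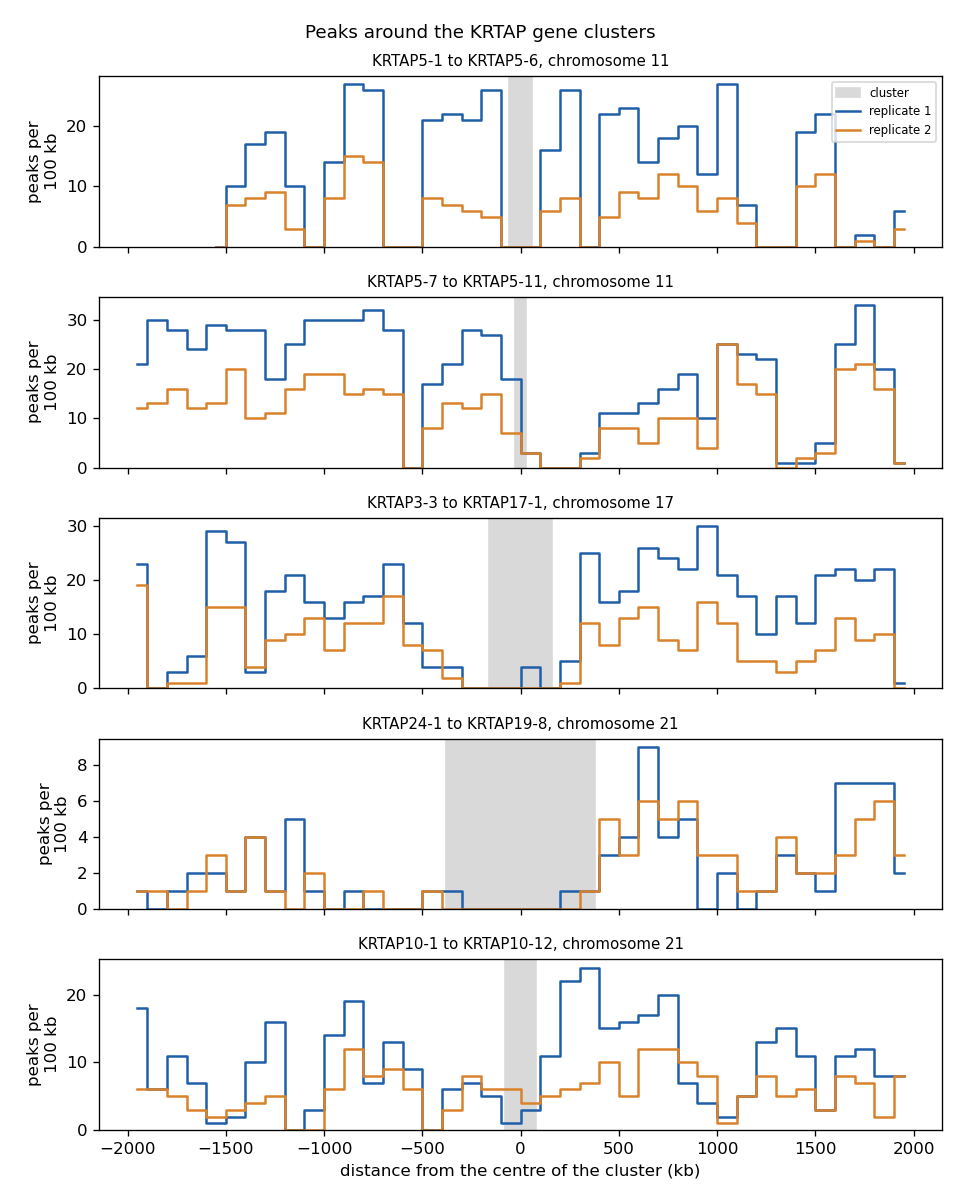
Number of peaks per bin of 100 kb (vertical axis) by distance from the centre of each cluster (horizontal axis, kb), in replicate 1 (blue) and replicate 2 (orange); grey bands mark the clusters. The counts drop to 0 over KRTAP5-1 to KRTAP5-6, stay at or below 4 per bin over the chromosome 17 cluster and at or below 1 over the larger chromosome 21 cluster, and at KRTAP5-7 to KRTAP5-11 the cluster sits where the counts fall from one side to the other.

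The clusters were set against consecutive stretches of the same length on their own chromosome that held a protein-coding gene. No more peaks than in the chromosome 17 cluster were found in 25 of 221 stretches of 322 kb in replicate 1 (11.3%) and in 20 in replicate 2 (9.05%), where the median stretch had 40 and 21 peaks. For KRTAP5-1 to KRTAP5-6 the shares were 10.3% and 17% of 843 stretches. For the larger chromosome 21 cluster they were 43.9% and 29.3% of 41, for KRTAP10-1 to KRTAP10-12 51.0% and 71.3% of 143, and for KRTAP5-7 to KRTAP5-11 61.7% and 82.1% of 1576. The last 2 clusters held at least as many peaks as the median stretch in both replicates, and stretches with as few peaks as the first 2 were found elsewhere on their chromosomes.

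Inside the clusters, 4 of 16 replicate 1 peaks met one of the other list by at least 1 bp (25%, exact 95% interval 7.27% to 52.4%), against 33.6% in the flanks and 28.7% over the whole list. For replicate 2 it was 4 of 14 (28.6%, 8.39% to 58.1%), against 62.4% in the flanks and 52.0% over the whole list. The interval included the share of the whole list in both replicates, and left out that of the flanks in replicate 2. The 16 peaks of replicate 1 and the 14 of replicate 2 formed 4 shared regions, 3 of them in KRTAP5-7 to KRTAP5-11. Beside those at KRTAP5-9, the third spanned chr11:71562717-71563961, 1602 bp from KRTAP5-10, with folds of 3.12 in replicate 1 and 2.73 in replicate 2. The fourth (chr21:44650688-44651670, folds 3.09 and 2.46) lay 2543 bp from KRTAP12-4. The chromosome 17 cluster, the larger chromosome 21 cluster and the short-arm chromosome 11 cluster held none.

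Promoter windows, from 250 bases before to 50 after the start, compare genes at equal length. A peak lay over 4 of 80 members' windows in replicate 1 (5.0%, exact 95% interval 1.38% to 12.3%), against 51.0% of 15812 protein-coding genes, and over 1 in replicate 2 (1.25%, 0.0316% to 6.77%), against 13.3%. None had a peak in both, against 9.8%, and the exact 95% interval of 0 of 80 reaches 4.51%. Olfactory receptors were close to the members here, with 14 of 314 in replicate 1 (4.46%) and 9 in replicate 2 (2.87%). Hair keratins had 3 of 14 in replicate 1 (21.4%, 4.66% to 50.8%), an interval that overlaps that of the members. In replicate 2 they had 0 of 14, with an exact interval that reaches 23.2% and so holds the 13.3% of all protein-coding genes. With so few promoters, replicate 2 cannot show whether the larger share of hair keratins in the wider gene windows remains in promoter windows.

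The members' promoters were poorer in GC than those of most protein-coding genes. The GC content of the 250 bases before the start had a median of 40.6% in members (28.4% to 62.4%), against 62.4% over all protein-coding genes, and CG dinucleotides had a median of 1.5 against 17. Among all protein-coding genes with a promoter GC of 37.1% to 44.4%, the middle 50% of the members, 11.5% of 1214 windows had a peak in replicate 1 and 4.28% in replicate 2, and 1.48% in both. Of the 41 members in that band, 2 had a peak in replicate 1 and none in replicate 2. The gap between members and other genes was thus narrower at like GC, and the part of base composition in it was not tested. The KRTAP10-1 to KRTAP10-12 cluster, with medians of 53.2% GC and 3.0 CG dinucleotides, stood above the larger chromosome 21 cluster (37.0% and 1.0) and the chromosome 17 cluster (40.4% and 1.0). The promoter of KRTAP5-9 had 54.0% GC and 4 CG dinucleotides.

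The sequence TATAAA, the letters of the TATA box, stood on the gene's strand in the 250 bases before the start of 61 of 80 members (76.2%), against 6.67% of protein-coding genes; on either strand the shares were 78.8% and 9.25%. It is seen in the lines printed above for KRTAP4-4, KRTAP23-1 and KRTAP10-9, while those of KRTAP5-9 and KRTAP10-6 do not hold these letters on the gene's strand. The letters were counted anywhere in the 250 bases, so a match need not be a TATA box. At KRTAP23-1 they stood near the far end of the stretch, away from the start. At KRTAP4-4 the sequence TATAAA lay under the peak. Olfactory receptors had it in 19.7% and hair keratins in 57.1% (8 of 14).

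Many members are near copies of each other, and the deposited lists do not say how reads with several matches were treated. Of the 80 members with a promoter window, 15 had another member's window at an identity of 80% or more, such as KRTAP4-4 (85.0% to KRTAP4-2) and KRTAP9-2 (92.8% to KRTAP9-9), and 6 had one at 90% or more. A peak in the gene window of either replicate was found at 1 of those 15 and at 7 of the other 65. Most of these 80 promoter windows were thus not close copies of another one among them. Gene bodies, pseudogenes and the 14 members without a promoter entry were not compared, so closer copies may exist. The part of shared sequence in the low number of peaks was not tested. The promoter windows of 9 of the 11 KRTAP5 genes were not compared.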

How the data were processed

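ChIP-seq peaks of 2 replicates were analysed. Per the submitters' processing notes, the tools were Bowtie2 2.2.9 and MACS2 2.1.1 and the build hg38. Their settings, and how input entered, are not stated there. In the deposited lists, the authors' columns hold per peak a score, a fold enrichment (a ratio) and −log10 p and −log10 q values, read by the layout of the broad peak format; fold and −log10 q served to describe peaks.

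Gene spans and promoters were those of RefSeq for GRCh38.p14, the assembly behind hg38. Overlaps of at least 1 bp with the gene span plus 1 kb were counted in Python 3.11.15 (pandas 2.3.3, scipy 1.17.1), and densities by peak centres. A shared region was a union of overlapping peaks with at least 1 of each replicate. Counting was tested on simulated data. Intervals are exact (Clopper-Pearson), and a count of 0 was given the limit of 3 counts. Promoter identity came from global alignments in Biopython 1.88. Members and lists were chosen with earlier results of these data known; the promoter windows, the GC band, the short genes and the stretches were added after seeing the data. The rule for named genes took members with a peak, the ends of each cluster, overlapping genes, and up to 3 genes of each list with peaks in both replicates; other genes named were chosen after their values were seen. Protein sequences were not used, so protein families follow the textbook grouping of subfamily numbers in place of the planned composition. No test was made, since each replicate is 1 list.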

Additional observations from a re-analysis of the deposited data

How the results depend on the processing

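With windows of 5 kb, members with a peak numbered 15 in replicate 1, 12 in replicate 2 and 7 in both, and 4 had a shared region, against 81.5%, 70.1%, 67.3% and 55.2% of all protein-coding genes. Among peaks whose −log10 q was 2 or more, they numbered 1, 0 and 0, with 0 shared regions, against 62.0%, 38.0%, 32.8% and 16.5%. In the upper 50% of each list by fold they numbered 2 in replicate 1, 4 in replicate 2, and 0 in both or with a shared region, against 66.1%, 45.1%, 38.1% and 20.2%. With equal numbers of peaks they numbered 1 in replicate 1, 5 in replicate 2, and 0 in both or with a shared region, against 69.1%, 64.1%, 56.0% and 41.8%. In promoter windows, an alternative added after seeing the data as was the next, they numbered 4, 1 and 0, against 51.0%, 13.3% and 9.8%. Without the KRTAP5-7 to KRTAP5-11 cluster, and so without 5 of the 94 members, they numbered 5, 2 and 0. Over all protein-coding genes, with that cluster kept, the shares were 79.2%, 64.1% and 61.2%. Taken from either replicate alone, the count in both became 5 to 6.

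The mean ratio of cluster to flank density, 0.126, was 0.0837 for a −log10 q of 2 or more, 0.192 in the upper 50% by fold, 0.203 without KRTAP24-1 to KRTAP19-8 and 0.0852 without KRTAP10-1 to KRTAP10-12; it was below 1 in every alternative run. In single replicates it was 0.0982 to 0.153. The ratio of covered bases, 0.0819, was 0.143 in the upper 50% by fold, and 0.0421 to 0.122 in single replicates. The mean of the median distances, 140824 bp, was 64254 to 217394 bp in single replicates. The cause of these moves was not tested. No paired analysis was possible because each ChIP replicate came as 1 peak list and no list of input peaks was analysed.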

Other observations

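Relatives that are not counted among the 94 genes gave the following values. Of 18 KRTAP pseudogenes on chromosomes 11, 17 and 21, only KRTAP10-13P had a peak in the gene span plus 1 kb, in replicate 1, and none had one in replicate 2. The 8 SCYGR genes of chromosome 2, small cysteine and glycine repeat genes, had a peak at 1 gene in replicate 1 and at 1 in replicate 2, which were SCYGR1 and SCYGR3, and at none in both. All protein-coding genes had 79.2% in replicate 1, 64.1% in replicate 2 and 61.2% in both. Those no longer than the longest member had 35.1%, 19.2% and 15.2%.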
